A study of Mus musculus with 24 samples.

Results

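The alarmin cytokine genes Il33 and Il24, the cytokine receptor gene Il18r1 and the adhesion molecule genes Vcam1 and Icam1 were followed through 8 groups of sorted mouse mammary epithelial cells. They were 5 of the 19937 genes measured, selected on the gene symbol of their probe set and proposed for their levels in these same arrays. The rule would have taken the brightest of several probe sets by the mean over the 24 arrays, but each of the 5 genes had 1. Their values and p-values are therefore a description of size against spread and no independent evidence.

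The cells came from mice in which the Lgr5 gene drives the tamoxifen-activated recombinase creERT2. Mutant mice also carried an inducible PIK3CA H1047R transgene, an activated form of the catalytic subunit of PI3-kinase, and control mice carried Lgr5-creERT2 alone. The tissue was labelled preneoplastic mammary gland. All mice were on a mixed FVB/C57BL6 background and had received tamoxifen 4 weeks earlier, and their ages are not given in the sources used here. Glands of 2 to 3 mice per genotype, synchronised in estrus, were pooled for each of 3 independent sortings. Every sort excluded CD45-positive cells. The basal gate (CD24 low, Sca1 negative) was divided by GFP in both genotypes, which gave control basal GFP-, control basal GFP+, mutant basal GFP- and mutant basal GFP+ cells. The luminal gates (CD24 high) were Sca1- or Sca1+, and there the control cells were GFP- and the mutant cells GFP+. Genotype and GFP gate therefore cannot be told apart in the luminal comparisons. GFP marked cells that expressed Lgr5 or the transgene. Amplified RNA from 250 sorted cells was hybridised to Affymetrix Mouse Gene 1.0 ST arrays, 3 per group. Levels below are deposited log2 values per probe set, and a log2 difference of 1 is a doubling.

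Il33 is a nuclear cytokine of the interleukin-1 family that damaged barrier epithelium releases. It signals through the receptor Il1rl1 and the shared chain Il1rap. Il24, of the interleukin-10 family, signals to Stat3 through Il20rb paired with Il20ra or Il22ra1. Il18r1 is the ligand-binding chain for interleukin-18. Vcam1 and Icam1 are cell-surface adhesion molecules of the immunoglobulin family, classically induced by inflammatory signals through NF-kB on endothelium. Vcam1 binds integrins that contain Itga4 or Itga9, and Icam1 binds those that contain Itgb2. In the mammary gland, basal cells are contractile, Sca1- luminal cells include milk-lineage progenitors, and Sca1+ luminal cells include the hormone-sensing cells.

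RefSeq promoter windows on GRCm38.p6 were held for 3 of the 5 genes, namely Il33 with 2 start sites, Il18r1 with 3 and Icam1 with 1. The 250 bases before the start are shown for both windows of Il33, which differed between genotypes in 2 gates. They are set beside the windows with STAT motif matches of Il18r1 and Icam1, which had no genotype call. Capitals mark TTCNNNGAA, the palindrome of STAT factors, and TATAAA, the core of a TATA box. The regions are chr19:29924863-29925112 and chr19:29945540-29945789 for Il33, chr1:40465756-40466005 for Il18r1 and chr9:21015690-21015939 for Icam1, all on the plus strand.
Il33, window 1: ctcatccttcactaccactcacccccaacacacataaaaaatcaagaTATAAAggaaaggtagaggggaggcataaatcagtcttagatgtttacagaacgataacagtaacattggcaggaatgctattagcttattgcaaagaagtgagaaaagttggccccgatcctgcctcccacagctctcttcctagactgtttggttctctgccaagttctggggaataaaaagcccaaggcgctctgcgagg
Il33, window 2: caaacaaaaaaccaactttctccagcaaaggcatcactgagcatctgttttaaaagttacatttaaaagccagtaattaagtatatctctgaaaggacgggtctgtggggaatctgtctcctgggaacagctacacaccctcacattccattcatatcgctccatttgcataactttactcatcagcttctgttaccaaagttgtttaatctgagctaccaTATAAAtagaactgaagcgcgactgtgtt
Il18r1, window 3: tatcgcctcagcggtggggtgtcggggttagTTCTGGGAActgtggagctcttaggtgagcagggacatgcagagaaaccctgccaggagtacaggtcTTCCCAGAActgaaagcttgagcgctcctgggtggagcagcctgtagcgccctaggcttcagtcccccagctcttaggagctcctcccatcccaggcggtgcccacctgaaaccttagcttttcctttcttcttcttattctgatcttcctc
Icam1: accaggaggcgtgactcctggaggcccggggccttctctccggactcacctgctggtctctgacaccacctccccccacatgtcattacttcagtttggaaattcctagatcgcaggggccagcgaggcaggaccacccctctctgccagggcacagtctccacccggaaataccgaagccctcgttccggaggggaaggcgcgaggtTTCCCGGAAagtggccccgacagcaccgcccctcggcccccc
Window 2 of Il33 has TATAAA beginning at -29 from its start, window 1 of Il33 has one at -203, and Icam1 has one at 13 bases past its start, outside the printed stretch. Over the full windows, which run 50 bases past the start, 13.6% of 32851 windows hold TATAAA on either strand. TTCNNNGAA was found at 2 positions in window 3 of Il18r1, -219 and -152, and at -42 in Icam1. It occurs in 8.3% of all windows. The NF-kB pattern, GGG and CC separated by 5 unspecified bases, was found at -58 in this Il18r1 window and at -120 in Icam1, overlapping no STAT match, and in 50.8% of all windows. TGANTCA, the AP-1 pattern, was in no window of the 3 genes and in 7.81% of all. Windows 1 and 2 of Il18r1, not printed, held none of the patterns searched, and the windows of Il33 held no STAT or NF-kB match. Both strands were searched, and such matches describe letters, not binding.

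Il33, Il24 and Vcam1 were all high in mutant basal GFP+ cells, and lower in every array of the other basal groups. Il33 was also high in Sca1+ luminal cells, and higher there in mutants. Il18r1 marked Sca1+ luminal cells of both genotypes, and Icam1 ran the opposite way, from high in basal to low in Sca1+ luminal cells. In a limma fit over all 19937 genes (adjusted p under 0.05, Benjamini-Hochberg), mutant against control basal GFP+ cells called 3 of the 5 genes, all higher, against 12.6% of all genes. Mutant GFP+ against mutant GFP- basal cells called the same 3 genes, all higher, against 2.51% of all genes. These comparisons share the mutant GFP+ arrays. The genotype difference itself was larger in GFP+ than in GFP- basal cells for 3 of the 5, against 1.07% of all genes.

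Outside the mutant basal GFP+ gate there were fewer genotype differences. Mutant against control basal GFP- cells called 0 of the 5, with 0.0602% of all genes called and no member at an unadjusted p under 0.05. Mutant against control Sca1- luminal cells called 0 of the 5, with 0.727% of all genes called, although Il24 had an unadjusted p of 0.000525. Mutant against control Sca1+ luminal cells called 1 of the 5, Il33, with 0.777% of all genes. GFP+ against GFP- control basal cells called 0 of the 5, with 1.25% of all genes and no member under 0.05 unadjusted. The 2 luminal genotype differences were compared with each other and called 0 of the 5, with 0.161% of all genes. Before adjustment 3 of the 5 were under 0.05 there, with differences of 2.29 for Il33 (limma adjusted p = 0.2), -1.12 for Il18r1 (limma adjusted p = 0.55) and 0.63 for Icam1 (limma adjusted p = 0.647).

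Comparisons of cell types each called 3 or 4 of the 5. Sca1- luminal against basal GFP- cells of control mice called 3 of the 5, 2 higher and 1 lower, against 9.83% of all genes. Sca1- luminal against basal GFP+ cells of mutants called 4 of the 5, 1 higher and 3 lower, against 7.86% of all genes. The lower ones included Il33 and Vcam1, which were high in these mutant basal GFP+ arrays. Sca1+ against Sca1- luminal cells called 3 of the 5 in controls, 2 higher and 1 lower, against 3.69%. The same comparison in mutants called 4 of the 5, 2 higher and 2 lower, against 3.66%. Since the genes were proposed with such results in view, these shares were not tested against the background.

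**Figure D1:**
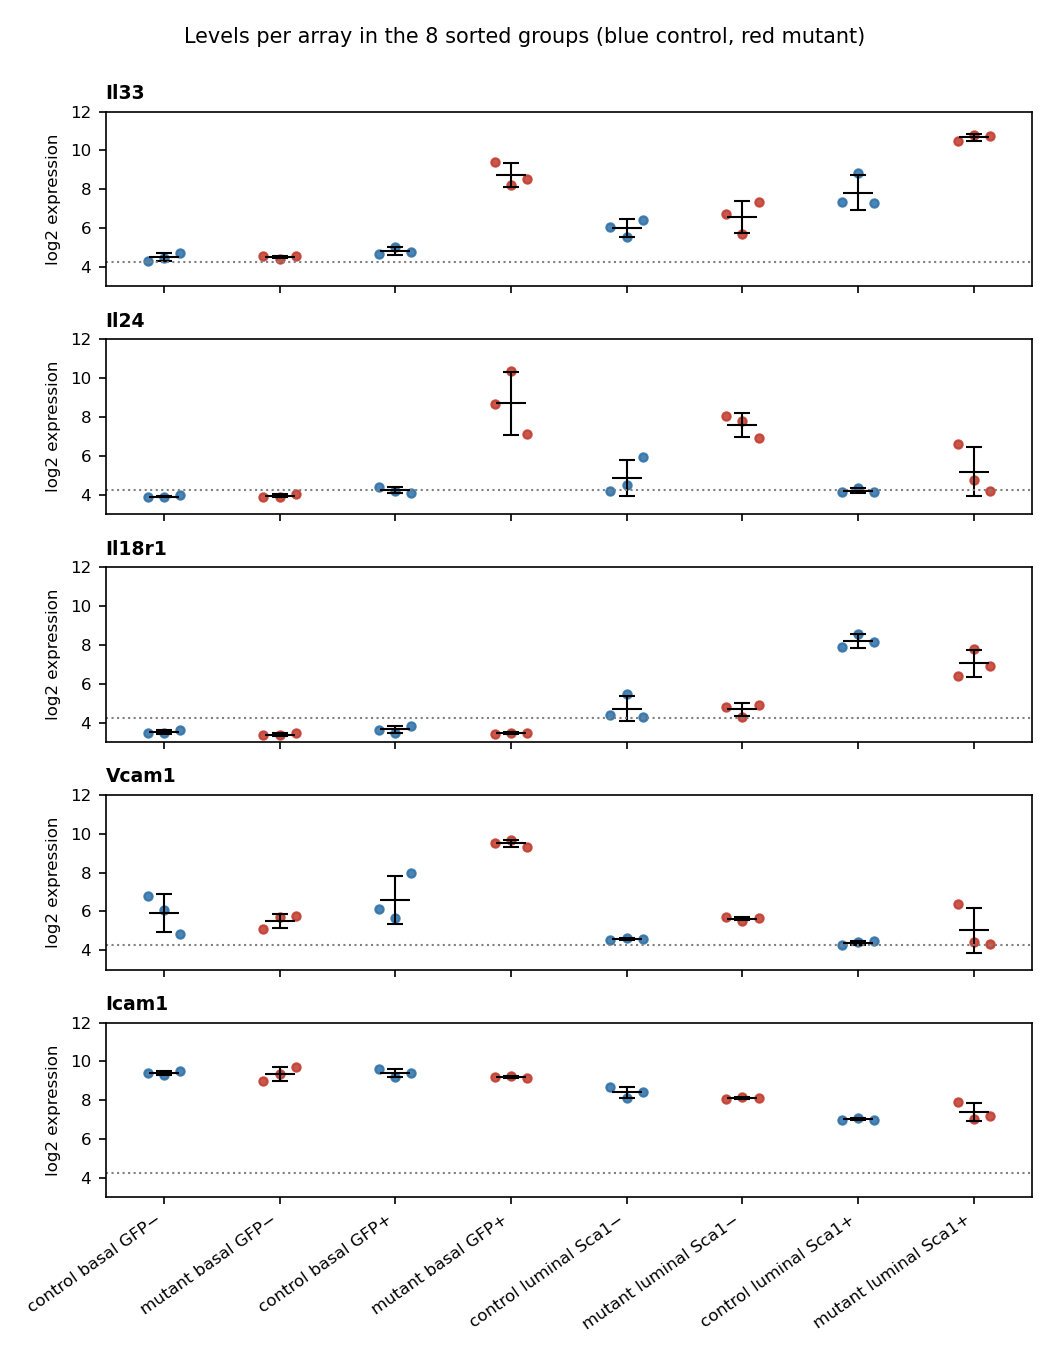
Log2 level (y axis) of each of the 5 genes in every array (points) of the 8 sorted groups (x axis), blue for control and red for mutant, with mean and SD of 3 arrays in black and the background level of 4.25 dotted. Il33, Il24 and Vcam1 stand high in mutant basal GFP+ cells, Il18r1 in Sca1+ luminal cells, and Icam1 steps down from basal to Sca1+ luminal cells.

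Basal markers separated the basal from the luminal arrays, and 1 mutant Sca1+ luminal array stood apart from its group. The 9 basal markers averaged 10.47 log2 or more in every basal array and 5.24 to 7.01 in the luminal arrays. The level of 4.25 used here as background is the 95th percentile of the mean levels of 1194 odorant and vomeronasal receptor genes. The leukocyte gene Ptprc lay at 3.97 to 4.47 in the 24 arrays, and the 17 leukocyte markers averaged 4.00 to 4.23. Pik3ca was 1.09 higher in mutant than in control basal GFP+ cells (adjusted p = 0.00435), 0.90 higher in Sca1- luminal (adjusted p = 0.0593), 0.56 higher in Sca1+ luminal (adjusted p = 0.424) and differed by -0.26 in basal GFP- cells (adjusted p = 0.901). Lgr5 differed by -3.16 between mutant and control basal GFP+ cells (adjusted p = 7.95e-05), so the GFP+ gates of the genotypes differed in it. The receptor genes averaged 3.73 to 3.75 in control basal GFP+ arrays, 3.59 to 3.62 in mutant basal GFP+ arrays and 3.62 to 3.73 in the other 6 groups. The median difference of all genes in that comparison was -0.10. In the mutant Sca1+ luminal group, replicate 1 had Krt5 at 7.98 against 5.18 and 6.28 in the others. Krt5 was also raised in the whole mutant Sca1- luminal group, with 8.63, 7.92 and 8.94. Control Sca1- luminal arrays had 4.93, 5.24 and 5.47 (difference 3.29, limma adjusted p = 0.000572).

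Il33 was lowest in basal cells, intermediate in Sca1- luminal cells and high in Sca1+ luminal cells, and mutant basal GFP+ cells left this order. Its levels were 4.32, 4.48 and 4.75 in control basal GFP- arrays and 4.54, 4.44 and 4.54 in mutant basal GFP- arrays. In basal GFP+ arrays they were 4.66, 5.03 and 4.76 for controls and 9.40, 8.21 and 8.53 for mutants. All 3 mutant GFP+ arrays lay above every other basal array, and the remaining 9 lay between 4.32 and 5.03, close above background. The difference between genotypes in GFP+ cells was 3.89 ± 0.41 (log2, SE), a 14.9-fold higher level in mutants (adjusted p = 1.12e-05). Between GFP+ and GFP- cells of mutant mice it was 4.20 ± 0.41 (18.4-fold, adjusted p = 4.96e-06). Control GFP+ and GFP- cells differed by 0.30, with a 95% interval from -0.56 to 1.16, and their arrays overlapped. The genotype difference was 3.90 ± 0.58 larger in GFP+ than in GFP- cells (adjusted p = 0.00149).

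In luminal cells Il33 rose with Sca1 in both genotypes. Sca1- arrays had 6.07, 5.53 and 6.43 in controls and 6.71, 5.69 and 7.33 in mutants. These overlapped, and the difference of 0.57 had an interval from -0.29 to 1.42. Sca1+ arrays had 7.32, 8.85 and 7.29 in controls and 10.48, 10.81 and 10.74 in mutants, with no overlap. The mutant level was 2.86 ± 0.41 higher (7.24-fold, adjusted p = 0.000787), a call that was lost when only these 6 arrays were fitted (adjusted p = 0.176). Sca1+ exceeded Sca1- cells by 1.81 in controls (adjusted p = 0.0161) and by 4.10 in mutants (17.2-fold, adjusted p = 6.64e-06). The control step was not called when Sca1- replicate 2 or Sca1+ replicate 2 was left out (adjusted p = 0.0843 and 0.0788), or with only its 6 arrays fitted (adjusted p = 0.184). The genotype differences of the luminal gates differed by 2.29 ± 0.58, which did not pass (adjusted p = 0.2), and did pass without control Sca1+ replicate 2, the array at 8.85 (2.81, adjusted p = 0.026).

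Against basal cells, control Sca1- luminal cells had 1.49 more Il33 (adjusted p = 0.0246), and the arrays did not overlap. That call was lost in 4 of the 6 fits that left out 1 array, namely without basal GFP- replicate 1 or 2 or Sca1- replicate 1 or 3, with adjusted p up to 0.105. In mutants the order turned, with a difference of -2.13 between Sca1- luminal and basal GFP+ cells (adjusted p = 0.00188, or 0.0623 with only these 6 arrays fitted). Across the 8 groups, mutant Sca1+ luminal cells led with a mean of 10.7 ± 0.18 (SD, n = 3), followed by mutant basal GFP+ cells at 8.71 ± 0.62. Mutant basal GFP+ and control Sca1+ luminal arrays overlapped, and so did control Sca1+ and mutant Sca1- luminal arrays.

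Il24 was high in mutant basal GFP+ and mutant Sca1- luminal cells, and not in every mutant group. It lay at or near the background level in all control groups but Sca1- luminal cells, and under it in mutant basal GFP- cells. Basal GFP- arrays had 3.88, 3.88 and 3.97 in controls and 3.90, 3.91 and 4.03 in mutants, all under the background level. Basal GFP+ arrays had 4.40, 4.21 and 4.11 in controls and 8.65, 10.37 and 7.13 in mutants. The groups did not overlap, but the mutant arrays spread over more than 3 log2 units. The genotype difference in GFP+ cells was 4.48 ± 0.64 (22.3-fold against a control group of which 2 arrays were under background, adjusted p = 0.000314). Mutant GFP+ cells were at least 22.1-fold above mutant GFP- cells, taking background as the floor. The limma call for this comparison (adjusted p = 0.00019) is for the deposited values, not for that bound. The first call was lost when only these 6 arrays were fitted (adjusted p = 0.078), and so was the second (adjusted p = 0.0816). The genotype difference was 4.44 ± 0.91 larger in GFP+ than in GFP- cells (adjusted p = 0.0204). That call was lost in a fit of the 4 basal groups alone (adjusted p = 0.102) and under array weighting (adjusted p = 0.0693).

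In Sca1- luminal cells Il24 was 4.20, 4.52 and 5.93 in controls and 8.06, 7.78 and 6.92 in mutants. All mutant arrays lay above all control arrays. The difference of 2.70 ± 0.64 (6.52-fold) just missed the threshold (adjusted p = 0.0608) and passed without control replicate 3, the array at 5.93 (3.23, adjusted p = 0.0351). Sca1+ luminal arrays had 4.15, 4.37 and 4.12 in controls and 6.60, 4.77 and 4.22 in mutants, and overlapped. Mutant Sca1+ replicate 1, which gave the 6.60, is the array with the highest Krt5 of its group. In mutants the Sca1+ minus Sca1- difference of Il24 was -2.39 ± 0.64 (adjusted p = 0.0444), or -3.09 without that array (adjusted p = 0.00747). The call was lost in each of the other 5 fits that left out 1 array (adjusted p 0.0506 to 0.247), with only its 6 arrays fitted (adjusted p = 0.175) and after quantile normalisation (adjusted p = 0.051). The cytokine thus had 2 high groups, mutant basal GFP+ at 8.72 ± 1.62 (SD, n = 3) and mutant Sca1- luminal at 7.59 ± 0.60, whose arrays overlapped (difference -1.13, interval -2.48 to 0.22).

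**Figure D2:**
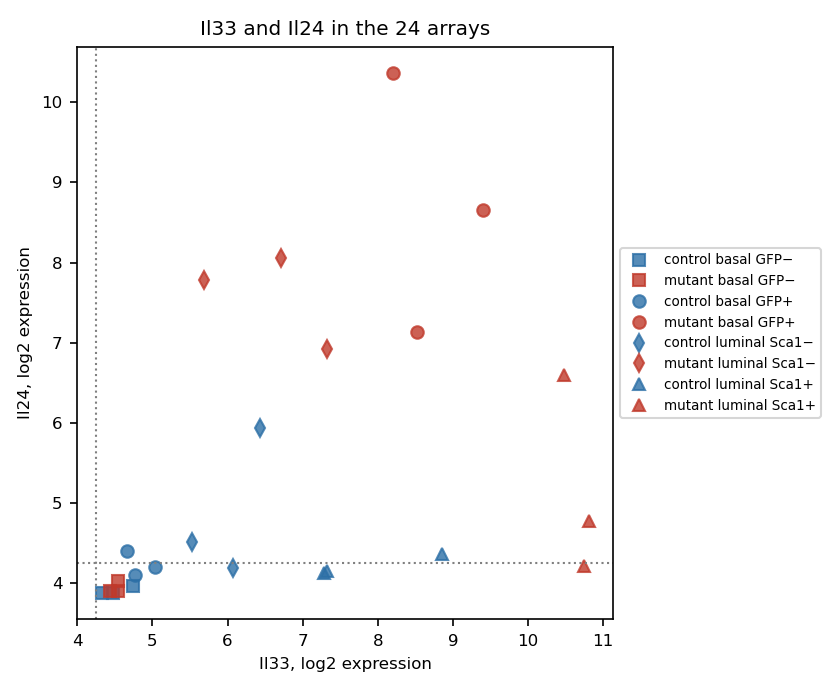
Il33 (x axis, log2) against Il24 (y axis, log2) in the 24 arrays, blue for control and red for mutant, symbols by gate, with the background level of 4.25 dotted. Mutant basal GFP+ arrays are high in both, mutant Sca1- luminal arrays are high in Il24 at moderate Il33, and mutant Sca1+ luminal arrays have the highest Il33 with low to moderate Il24.

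The cytokine genes thus had different patterns outside the mutant basal GFP+ gate. Over the 24 arrays their correlation was 0.42 (Pearson), and over the deviations of arrays from their group means it was -0.12. Both are descriptions of arrays that share groups and sorts.

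Il18r1 was a gene of Sca1+ luminal cells. Sca1+ arrays had 7.88, 8.57 and 8.17 in controls and 6.42, 7.79 and 6.92 in mutants. Sca1- luminal arrays had 4.41, 5.46 and 4.26 in controls and 4.78, 4.31 and 4.93 in mutants. All 12 basal arrays lay under the background level, between 3.34 and 3.81. Sca1+ exceeded Sca1- cells by 3.49 ± 0.30 in controls (11.3-fold, adjusted p = 1.25e-06) and by 2.37 ± 0.30 in mutants (5.18-fold, adjusted p = 9.46e-05). The second of these had an adjusted p of 0.0514 when only its 6 arrays were fitted.

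Sca1- luminal cells exceeded basal cells in Il18r1 by at least 1.38-fold in controls and at least 1.34-fold in mutants, with background as the floor. These bounds were not tested. The limma calls (adjusted p = 0.0138 and 0.0142) are for the deposited values, with differences of 1.21 and 1.22 against basal groups under background. Without control Sca1- replicate 2, the array at 5.46, the control call was lost (adjusted p = 0.0872). It was also lost with only its 6 arrays fitted (adjusted p = 0.12). The mutant call was lost without basal GFP+ replicate 1, Sca1- replicate 1 or Sca1- replicate 3 (adjusted p = 0.0505, 0.0557 and 0.0717). In Sca1+ luminal cells every mutant array lay below every control array. That difference was -1.16 ± 0.30 and did not pass (adjusted p = 0.106), except without mutant replicate 2, the array at 7.79 (-1.53, adjusted p = 0.0109). Of 4 hormone-sensing markers, Prom1 alone was called in that comparison (-2.32, adjusted p = 0.00113), where 0.777% of all genes were called. The median of these markers was -0.50, and their part in the Il18r1 values was not tested. In a bulk sort, fewer cells of a type and less RNA per cell cannot be told apart.

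Vcam1 was highest in mutant basal GFP+ cells, with 9.54, 9.65 and 9.32. Control basal GFP+ arrays had 6.14, 5.64 and 7.97, control basal GFP- arrays 6.81, 6.09 and 4.86, and mutant basal GFP- arrays 5.08, 5.70 and 5.75. The mutant GFP+ arrays lay above all others, and the controls spread widely and overlapped with mutant GFP- arrays. The genotype difference in GFP+ cells was 2.91 ± 0.55 (7.54-fold, adjusted p = 0.00341), and the mutant GFP+ level was 3.99 ± 0.55 above mutant GFP- cells (15.9-fold, adjusted p = 0.000243). The first was lost when only its 6 arrays were fitted (adjusted p = 0.102). The genotype difference was 3.33 ± 0.78 larger in GFP+ than in GFP- cells, which barely passed (adjusted p = 0.0464). It was lost on leaving out any of 10 of the 12 arrays (adjusted p up to 0.107) and held without control GFP- replicate 3 (0.0178) or control GFP+ replicate 3 (0.00754). It was also lost after quantile normalisation (adjusted p = 0.071) and in a fit of the 4 basal groups alone (adjusted p = 0.214).

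Luminal cells had little Vcam1. Control arrays had 4.53, 4.61 and 4.56 in the Sca1- gate and 4.28, 4.41 and 4.47 in the Sca1+ gate, close above background. Mutant Sca1- arrays had 5.69, 5.52 and 5.67, all above the controls, but the difference of 1.06 ± 0.55 did not pass against the spread shared by all groups (adjusted p = 0.505). With only these 6 arrays fitted it passed (adjusted p = 0.0248). Mutant Sca1+ arrays had 6.37, 4.42 and 4.33, where the high value came again from replicate 1. The genotype difference of 0.65 in that gate became -0.01 without replicate 1. In mutants the difference between Sca1- luminal and basal GFP+ cells was -3.87 (adjusted p = 9.15e-05). Against basal GFP- cells in controls it was -1.35, which did not pass (adjusted p = 0.151), and did without basal GFP- replicate 3, the array at 4.86 (-1.88, adjusted p = 0.0459).

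Icam1 was expressed in every group and fell stepwise from basal to Sca1+ luminal cells, with no genotype call. The 12 basal arrays lay between 8.97 and 9.69, and the 4 basal groups overlapped. Sca1- luminal arrays had 8.67, 8.13 and 8.40 in controls and 8.06, 8.19 and 8.14 in mutants. Sca1+ luminal arrays had 7.01, 7.08 and 6.97 in controls and 7.91, 7.04 and 7.18 in mutants, again with replicate 1 high. The Sca1- luminal minus basal difference was -1.02 ± 0.19 in controls (adjusted p = 0.00161) and -1.06 ± 0.19 in mutants (adjusted p = 0.00124). The Sca1+ minus Sca1- luminal difference was -1.38 ± 0.19 in controls (adjusted p = 0.000304) and -0.75 ± 0.19 in mutants (adjusted p = 0.0352). The mutant step was -1.02 without replicate 1 (adjusted p = 0.00136) and was lost in each of the other 5 fits without 1 array (adjusted p 0.0862 to 0.192). It was also lost with only its 6 arrays fitted (adjusted p = 0.219), after quantile normalisation (0.0561) and with a variance trend (0.0673). Mutant and control basal GFP+ cells differed by -0.22, with an interval from -0.62 to 0.19, and their arrays overlapped.

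**Figure D3:**
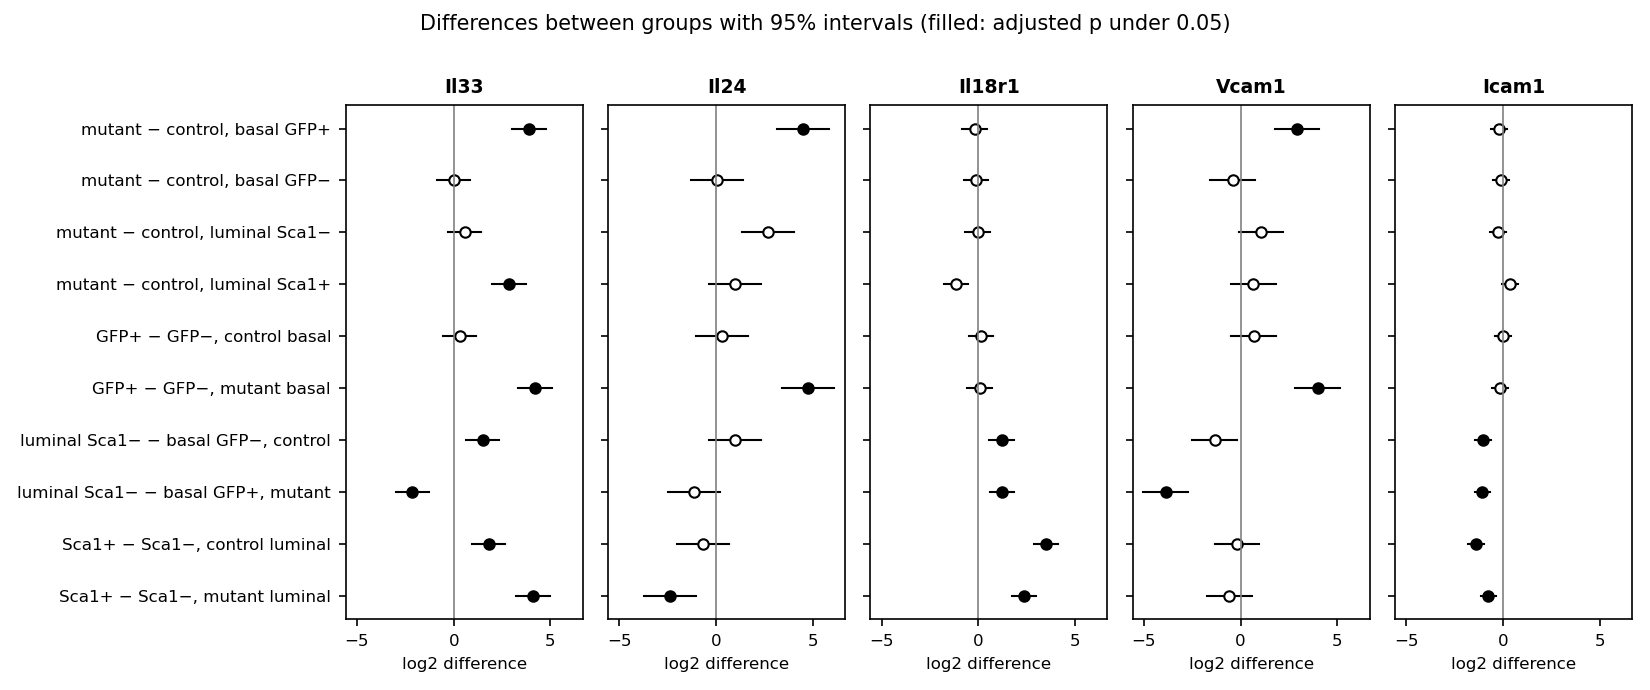
Log2 difference (x axis) with 95% interval for each of the 5 genes in 10 comparisons of groups (y axis), from a single limma fit; filled points passed an adjusted p of 0.05 over all genes. Il33, Il24 and Vcam1 share the large positive differences of mutant basal GFP+ cells, while those of Il18r1 and Icam1 lie with the luminal and Sca1 gates.

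Partners of these molecules were followed from lists chosen with earlier results known. Il1rl1, the specific Il33 receptor, had no probe set with a single gene symbol and was not analysed here. Il1rap, its shared chain, was 1.79 ± 0.41 higher in mutant than in control basal GFP+ cells (adjusted p = 0.0118) and 2.31 ± 0.41 higher in mutant Sca1- luminal cells (adjusted p = 0.00784). Its mean levels were 6.60 and 7.44 in these mutant groups and between 4.35 and 5.50 in the other 6. In mutants its Sca1+ minus Sca1- luminal difference was -2.62 (adjusted p = 0.000895), and the group with the highest Il33, mutant Sca1+ luminal cells, had a mean Il1rap level of 4.83.

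The ligand of Il18r1, Il18, had group means of 3.42 to 3.72, under background throughout, and the accessory chain Il18rap had 3.99 to 4.28. Il20ra, one of the Il24 receptor chains, had 3.53 to 3.75, and Il22ra1, its alternative, had 4.00 to 4.32. The shared chain Il20rb lay above background in every array, with group means of 5.07 to 5.88, and was called in none of the 12 comparisons. Stat3, the transcription factor downstream, was between 9.58 and 9.94. Il19, a close relative of Il24, was 1.32 ± 0.40 higher in mutant than in control basal GFP+ cells (adjusted p = 0.0391), with means of 5.41 and 4.09. All 3 control arrays were under background, and the mutant arrays spread from 4.36 to 7.02.

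Among integrins, Itga9, a Vcam1 partner, was low in mutant basal GFP+ cells, where Vcam1 was high. It fell by 1.79 ± 0.27 from control to mutant basal GFP+ cells (adjusted p = 0.000471), and the difference between mutant GFP+ and GFP- cells was -1.95 (adjusted p = 0.000232). Control Sca1- luminal cells were also lower in Itga9 than basal cells (-2.44, adjusted p = 4.45e-06). The Vcam1 difference there was -1.35 and was not called (limma adjusted p = 0.151). Mean levels of Itga9 were 6.06 to 6.57 in the other basal groups and 4.26 in mutant basal GFP+ cells. The list of 9 integrin genes had 0 rises and 3 falls between the genotypes in basal GFP+ cells, the others being Itgb2 (-0.38) and Itga4 (-0.24). In that comparison 12.6% of all genes were called, 1558 of the 2504 lower. Itga4 was under background in every group, and Itgb2 had means of 4.36 and 3.98, on either side of it. Itgb1, the common chain, was at 9.63 to 10.3 in all groups. Itga4, Itgal and Itgam had means at or under 4.26, and Itgb2 and Itgb7 at or under 4.36.

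**Figure D4:**
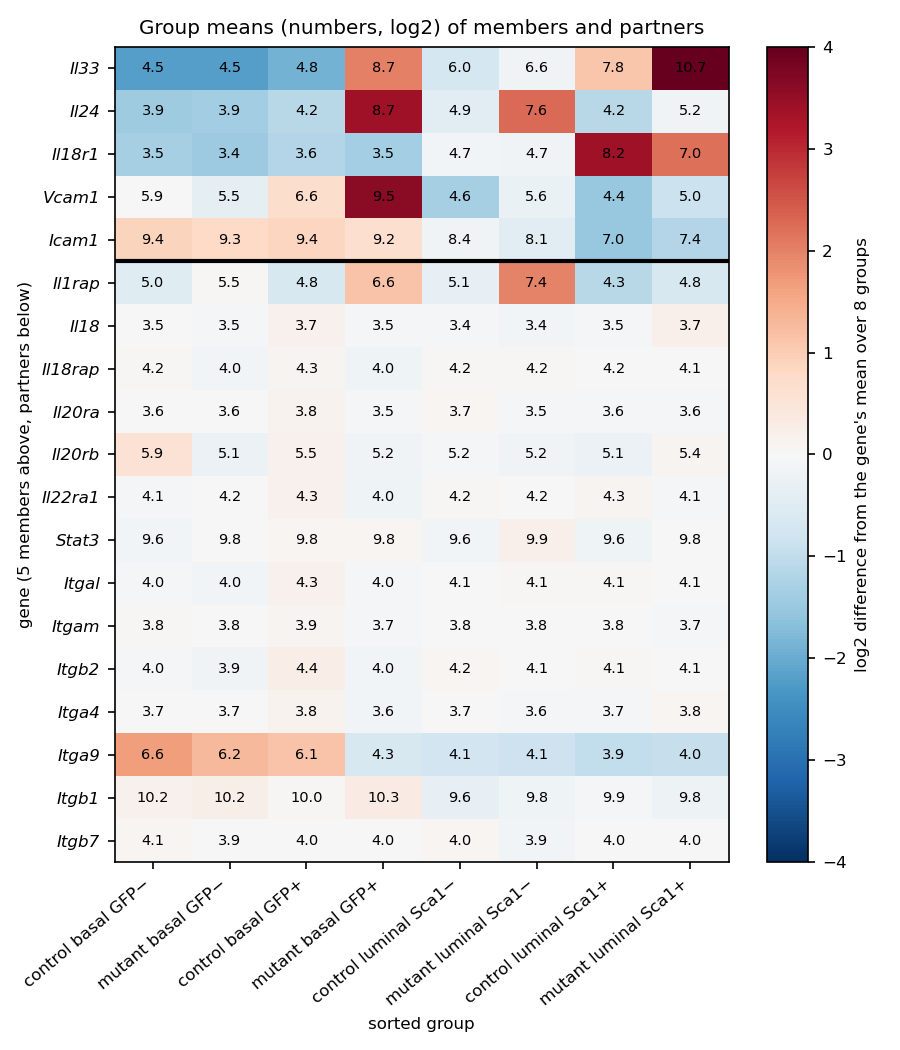
Mean log2 level of 3 arrays (numbers) of the 5 genes (above the line) and their receptor, ligand or integrin partners (below, y axis) in the 8 groups (x axis), coloured by the difference from the gene's own mean over groups. Rows are read across only, since probe sets differ in sensitivity. Il1rap is highest in mutant Sca1- luminal and mutant basal GFP+ cells, while Itga9 is low in mutant basal GFP+ cells.

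Of the 96 measured genes in 8 related lists, the 5 included, 10 were higher and 9 lower in mutant than in control basal GFP+ cells, where 12.6% of all genes were called. The 10 interleukin-1 family ligands had 1 higher, Il33, and 1 lower, Il18. The 11 receptors and adaptors of that family had 2 higher, Il1rap and Traf6, and 0 lower. The 13 genes of the interleukin-10 and interleukin-20 family had 2 higher, Il24 and Il19, and 1 lower, Il10ra. Of 16 endothelial-type adhesion molecules, 2 were higher, Vcam1 and Cd44, and 0 lower. Cd44, the hyaluronan receptor, rose by 1.39 (adjusted p = 0.0138) and by 1.73 in Sca1+ luminal cells (adjusted p = 0.0128).

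The falls of Il18 (-0.25), Il10ra (-0.23) and Itga4 (-0.24) concerned genes under background in every group. The 1194 odorant and vomeronasal receptor genes shifted less in this comparison, with a median of -0.12, and 7.37% of them were called. Whether this shift produced those calls was not tested. The list of 10 other epithelial alarmins and related receptor, channel and protease genes had 1 higher and 2 lower. The receptor Crlf2 was among the latter, with -0.60 (adjusted p = 0.0327). None of the alarmins themselves on this list was called in this comparison. P2rx7, an ATP-gated channel that drives inflammasome activation, and Casp1, the inflammasome protease, moved in opposite directions. P2rx7 fell by 1.92 (adjusted p = 0.0029) and Casp1 rose by 1.23 (adjusted p = 0.0357). Of 11 TNF family genes, 0 were higher and 2 lower, Ltb (-0.59) and Cd40 (-0.38). Casp1 was also 1.86 higher in mutant Sca1+ luminal cells (adjusted p = 0.0148).

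Members of the NF-kB pathway were called between cell types and, in basal GFP+ cells, between genotypes at a share near that of all genes. Of 16 factors and feedback targets, 2 were higher in mutant than in control basal GFP+ cells, Nfkbib (1.58, adjusted p = 0.0461) and Tnfaip3 (1.04, adjusted p = 0.0391), and 0 lower, where 12.6% of all genes were called. The median of the list was 0.20, against -0.10 for all genes. Between mutant GFP+ and GFP- basal cells 2 were higher, the factor Rel (1.79, adjusted p = 0.00609) and the inhibitor Nfkbia (0.75, adjusted p = 0.0412), and 0 lower, where 2.51% of all genes were called. Sca1- luminal against basal cells of controls gave 7 higher and 1 lower, among them Nfkb2 (2.02, adjusted p = 1.9e-05) and Tnfaip3 (1.95, adjusted p = 0.000324), with a list median of 0.80 against 0.02 and 9.83% of all genes called. Whether the list differed more by cell type than by genotype was not tested. Tnf itself was 4.35 higher in that comparison (adjusted p = 2.71e-05), with 9.01 against 4.66. In the same comparison Icam1 had -1.02, which was called, and Vcam1 -1.35, which was not, as given above.

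Markers of other cell types were measured beside these genes. In mutant basal GFP+ cells the endothelial genes Pecam1 (3.99) and Cdh5 (3.87) and the pericyte genes Pdgfrb (3.96) and Rgs5 (4.13) were under background in all 3 arrays. Other markers were not, and 3 of the 12 endothelial and 2 of the 7 pericyte markers had means above background in these cells. The 12 endothelial markers averaged 4.08 to 4.17 there and 4.24 to 4.40 in control basal GFP+ arrays, with 0 higher and 2 lower. Between the genotypes in basal GFP+ cells 12.6% of all genes were called, which is the share for each marker count here. The 7 pericyte markers averaged 4.24 to 4.28 against 4.31 to 4.46, with none called. The 12 fibroblast markers averaged 5.69 to 6.09 against 5.57 to 5.78, with 2 higher, Dcn (4.30, adjusted p = 0.000901) and Col1a2 (0.46, adjusted p = 0.0448). In mutant basal GFP+ cells 7 of the 12 fibroblast markers had means above background, and the other 5, Pdgfra, Lum, Fap, Dpt and Mfap5, were under it, between 3.39 and 4.03. Dcn was also high in other groups, with means of 9.32 in control basal GFP- and 11.5 in control Sca1+ luminal cells. Of 17 leukocyte markers 0 were higher and 1 lower, Csf1r (-0.30).

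Of 6 luminal progenitor markers, 4 were higher in mutant than in control basal GFP+ cells, where 12.6% of all genes were called. Among them were the milk gene Csn3, by 5.63, and the progenitor factor Elf5, by 3.22 (adjusted p = 0.0144). The list averaged 7.89 to 8.12 against 4.61 to 5.77, and 6.65 to 7.67 in mutant basal GFP- arrays. Between mutant GFP+ and GFP- basal cells, where Il33, Il24 and Vcam1 were also called, 0 of the 6 were called by limma. The share of all genes called there was 2.51%. Of the 7 luminal epithelium markers and the 4 hormone-sensing markers, 0 were called between genotypes in basal GFP+ cells, with median differences of 0.32 and -0.40. The 9 basal markers had 0 called. In mutant Sca1- luminal cells, where Il24 and Vcam1 arrays lay above controls, the basal list averaged 6.42 to 7.01 against 5.24 to 5.39. Of its 9 genes 3 were higher (Krt5, Krt14 and Krt17), where 0.727% of all genes were called. The part of these markers in the values of the 5 genes was not tested.

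The 3 genes most like each of the 5 over the 24 arrays were found by Pearson correlation among 17067 genes, and no p is given since arrays of a group are alike. Il33 was followed by Dusp10 (r = 0.88), a phosphatase of stress kinases, Cdk18 (0.85) and the lysosomal channel Tpcn1 (0.84). Il24 was followed by the acute-phase genes Saa2 (0.88) and Saa1 (0.86) and by the neurotrophin receptor Ntrk2 (0.88). Saa1 had means of 8.51 in mutant basal GFP+, 10.1 in mutant Sca1- luminal and 7.20 in mutant Sca1+ luminal cells, and under 4 in the other 5 groups. Il18r1 was followed by Vill (0.98), Fam43a (0.96) and Tspan1 (0.95). Vcam1 was followed by the basement membrane gene Col4a5 (0.92), Brinp1 (0.91) and Lrrn3 (0.90). Icam1 was followed by the basal-cell peptidase Mme (0.98), the matrix gene Ccn2 (0.98) and Timp3 (0.96), which inhibits metalloproteinases. Among the 5 genes themselves, the strongest relation was negative, between Il18r1 and Icam1 (r = -0.95, and -0.52 over deviations from group means).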

How the data were processed

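Values were deposited by the authors as log2 expression per probe set, 1 column per array; the log2 scale was read from the values (2.59 to 13.5). Per the submitters' processing notes the tool affy was named, and background correction and normalisation are not given in the sources used here. Of 34760 probe sets, 21640 had 1 symbol in the platform annotation, giving 19937 genes by the highest mean over 24 arrays. A limma fit (limma 3.58.1, R 4.3.3) gave each of 8 groups a mean with 16 residual degrees of freedom; 12 contrasts were tested two-sided, with Benjamini-Hochberg adjustment over all genes. Errors of differences are standard errors. The fit was tested on simulated data. Arrays per group limit precision.

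Named genes were the 5 genes, up to 4 called genes of each list and contrast by smallest p, the 3 nearest by correlation, and Pik3ca, Lgr5, Krt5, Krt8 and Ptprc; other cell type markers were named after their values were seen. P-values measure the spread between sorted pools. Genes and lists were chosen with earlier results of these data known. Deviations of same-numbered arrays from their group means correlated weakly (-0.08 to 0.19, mean 0.04, against a mean of -0.02 for other numbers). With 3 arrays per group this cannot decide whether arrays of a number share a sorting. Numbers were not used as pairs in the main fit. The alternatives were fits of the compared groups alone, quantile normalisation, dim genes left out, the mean of a gene's probe sets, array weights, a replicate block, a variance trend, other control arrays and each array left out.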

Additional observations from a re-analysis of the deposited data

Results flagged for a closer look

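The genotype difference was larger in GFP+ than in GFP- basal cells for Il33 (3.90 ± 0.58, adjusted p = 0.00149), Il24 (4.44 ± 0.91, adjusted p = 0.0204) and Vcam1 (3.33 ± 0.78, adjusted p = 0.0464), by a limma test of the difference of differences with 3 arrays in each of 4 groups. Of these calls only that of Il33 held in every alternative fit, and those of Il24 and Vcam1 were lost in some, as given above. In GFP- cells the genotype differences of these genes were -0.01 for Il33 and -0.41 for Vcam1, and Il24 was under background in both genotypes. Lgr5, which the GFP gate partly follows, had a difference of differences of -2.43 (adjusted p = 0.0424), and Pik3ca one of 1.35 (adjusted p = 0.0361). Their part in the result was not tested.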

How the results depend on the processing

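Of 24 calls on the 5 genes, 10 held in every setting and 14 were lost in at least 1. Over 890 alternative values, 832 kept their side of the threshold, 51 fell short of it and 7 passed it. Among the 832 were 18 uncalled values that changed sign, and 0 called values did so. With only the compared groups fitted, the number of the 5 genes called was 1 for mutant against control basal GFP+ cells, 1 for Sca1- luminal, 0 for Sca1+ luminal, 1 for Sca1+ against Sca1- mutants and 1 for the difference of basal differences. Quantile normalisation gave 2 for Sca1+ against Sca1- mutants, array weights 1 for the difference of basal differences, and leaving out dim genes or a variance trend each gave 1 for mutant against control Sca1- luminal cells. Leaving out 1 array gave 0 to 1 for that comparison, 0 to 1 for the difference of luminal differences, 1 to 2 for mutant against control Sca1+ luminal cells and 2 to 4 for Sca1+ against Sca1- mutants.

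The replicate block, whose numbers may or may not pair the arrays, ended 2 calls: Il24 in Sca1+ against Sca1- mutants (-2.39, adjusted p = 0.0523) and Vcam1 in the difference of basal differences (3.33, adjusted p = 0.063). Taking control basal GFP- arrays as the reference for mutant basal GFP+ cells gave 4.19 for Il33 and 3.58 for Vcam1; Il24 was called too, against 3 arrays that were all under background. Genes called overall for mutant against control basal GFP+ cells numbered 2504, and 234 to 2692 over the settings, or 1034 to 3979 with 1 array left out.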
